A study of Mus musculus with 4 samples.

Results

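Heat shock proteins and their DNAJ co-chaperones were examined in mouse leukemic cells with and without a Tet2 knockout label. The family was taken by gene symbol, as entries whose name starts with Hsp followed by a, b, d, e, h or a digit, or with Dnaj followed by a, b or c and a digit. Of 74 such names, the endoplasmic reticulum chaperones Hspa5, Hsp90b1, Dnajb9 and Dnajc3 were left out, which gave 70 genes of the 24497 mouse entries in the table. The symbol rule itself uses no expression value, though earlier results of these data were known when the family was chosen. Hsp symbols accounted for 27 of these genes and Dnaj symbols for 43. Names are not functions: Hspb11, a subunit of intraflagellar transport, and Hspbap1 match by letters only, and Hspbp1 is an exchange factor for HSP70 rather than a small heat shock protein.

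Chaperones bind unfolded or partly folded proteins and release them in cycles driven by ATP. HSP70 proteins receive their clients from DNAJ proteins, whose J domain stimulates ATP hydrolysis, and are reset by nucleotide exchange factors such as the HSP110 proteins, while HSP90 takes over clients such as kinases and steroid receptors. Part of the family is made at all times and part is induced by heat shock factor HSF1, and leukemic cells are known for leaning on HSP90 to keep oncogenic kinases folded.

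RNA-seq was available for 4 libraries, 2 from wild-type (WT) cells and 2 from cells labelled Tet2 KO. Both groups were leukemic lines made from bone marrow hematopoietic stem cells of WT or Tet2-/- mice and carried NRAS and AE9a, the truncated AML1-ETO fusion, as their leukemia drivers. The knockout mice lack exons 8 to 10 of Tet2, and the labels give no treatment for either group. All cells were grown in RPMI 1640 with SCF (50 ng/ml), IL-3 and IL-6 (10 ng/ml each), G418 (1 mg/ml) and puromycin (2 µg/ml). The labels do not say how many mice or independently transformed lines each group represents.

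Values are TPM, transcript abundances that are corrected for transcript length and scaled to a fixed total, and changes are knockout-labelled minus WT on the log2(TPM + 1) scale with a moderated standard error (SE), on which the change of low genes is understated. A gene passed the test at a limma p under 0.05 after Benjamini-Hochberg adjustment over the 11837 genes that reached 1 TPM in 2 or more libraries. Tet2 itself was at 35.0 and 40.0 TPM in WT and at 53.5 and 52.8 TPM in the knockout-labelled libraries, and a value for the whole gene cannot check a deletion of part of it, so each direction below is between libraries as labelled. The blast and progenitor genes Kit, Cd34, Mpo, Spi1 and Cebpa were above 5 TPM in every library while Flt3 was at 0.13 to 0.43 TPM, and of 17 tested genes of that list 5 rose and 7 fell. In the same libraries 34 of 37 tested genes of granulocyte differentiation fell and 1 rose, and their summed level was 104170 and 101673 TPM in WT against 61022 and 61424 TPM. Of the monocyte, macrophage and dendritic markers 9 of 18 tested fell and 4 rose, and of the mast cell, basophil and eosinophil markers 10 of 13 fell and 2 rose. The lymphoid genes Cd3d, Cd3e, Cd3g, Cd4, Ms4a1 and Pax5 were under 0.1 TPM in every library, but of 4 tested genes of the lymphoid list Thy1 (0.79), Nkg7 (0.63) and Cd79b (0.63) rose and Il7r fell (-1.15). The 45S pre-ribosomal RNA was at 5704 and 4350 TPM in WT and at 14263 and 8813 TPM in the knockout-labelled libraries. In a bulk sample fewer cells of a type and less RNA per cell cannot be told apart.

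A few genes made up most of the family's expression. Its summed level was 7270 and 7359 TPM in WT and 7587 and 7544 TPM in the knockout-labelled libraries, which is 0.727% and 0.736% against 0.759% and 0.754% of all TPM. The 5 most abundant members, Hspa8, Hsp90ab1, Hsp90aa1, Hspd1 and Hspa9, held 74.0% to 74.7% of that sum in each library. The summed level was 3.43% higher in the knockout-labelled group as deposited, but differed by -4.69% when libraries were scaled to their spike-ins, so the direction of the sum depended on the scaling. The spike-ins summed to 29764 and 33037 TPM in WT and to 34136 and 33853 TPM in the knockout-labelled libraries. Scaling to them therefore shifted the WT libraries unequally, which limits each spike-in result below.

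Of the 70 genes, 57 reached the filter and were tested. Among them 8 rose, 6 fell and 43 did not pass, so that 24.6% were called where 30.5% of all tested genes were called. For rises the share over all genes was 18.9% and for falls 11.6%. The median change was 0.04 for the tested members and 0.04 for all tested genes. In 30 of the 57 the TPM ratio lay within 1.1-fold, and in 5 it passed 1.5-fold in either direction. The groups did not overlap in 45 of the 57 (78.9%), against 68.6% of all tested genes. These shares and the median were near those of all genes, so they are not a result about the family, and the account below is by member. With trimmed-mean scaling 6 members rose and 8 fell, 3 rose and 8 fell after scaling to the spike-ins, and with TPM rescaled without the granulocyte list and the 45S RNA 7 rose and 10 fell. The share of higher calls among all genes moved in the same settings from 62.0% to 48.5%, 29.9% and 45.3%, and spike-in scaling shifted the median of all genes to -0.07. The 14 called members kept the direction of their change under each of the 16 alternative settings, except that Dnajb5 and Hspa12b were not tested with the filter at 5 TPM. Of these, Dnajc6, Hsph1, Dnajb11 and Dnajb4 also passed under every one.

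**Figure D1:**
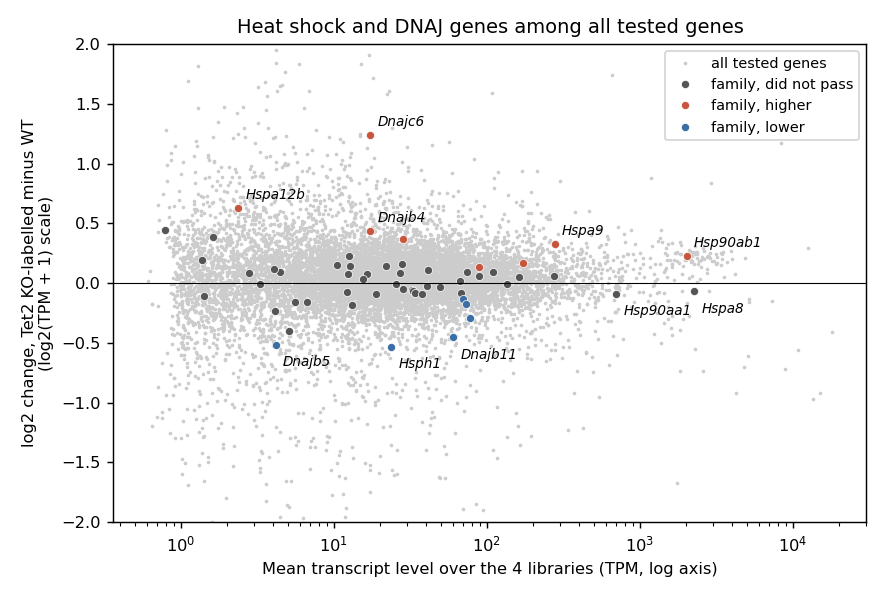
Change of each tested gene (log2, knockout-labelled minus WT) against its mean level over the 4 libraries (TPM, log axis), with heat shock and DNAJ genes in colour if they passed and dark grey if not. Most of the 57 family genes lie in the band of all genes near 0, and Dnajc6 at 1.24 and Hsph1 at -0.53 lie farthest out in each direction; 34 genes beyond a change of 2, none of the family, are not drawn.

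Of the cytosolic HSP90 paralogues, Hsp90ab1 rose and Hsp90aa1 did not pass. Hsp90ab1, the constitutive HSP90 isoform (chromosome 17, 45567775 to 45573271, minus strand, GRCm38), was at 1874 and 1850 TPM in WT and at 2160 and 2190 TPM in the knockout-labelled libraries. Both knockout-labelled values were above both WT values, and the gene rose by 0.22 on the log2 scale (SE 0.031, adjusted p = 0.00588). Hsp90aa1, the stress-responsive isoform, was at 700 and 739 TPM in WT and at 694 and 660 TPM in the knockout-labelled libraries. These groups lay apart by a narrow margin, and the change of -0.09 did not pass (95% confidence interval -0.19 to 0.02, adjusted p = 0.178). Hsp90aa1 passed as lower in 1 of the 16 alternative settings. Within each library Hsp90ab1 exceeded Hsp90aa1 by a ratio of 2.68 and 2.50 in WT and of 3.11 and 3.32 in the knockout-labelled libraries. That ratio did not overlap between groups, but an exact permutation of 2 libraries against 2 cannot go below p = 0.333. Without knockout-labelled replicate 1 or 2 the change was 0.23 and 0.21 but the call was lost (adjusted p = 0.0828 and 0.0925). In such fits the remaining library is taken to vary like the other group, and far fewer of all genes were called (8.57% and 8.95%). The call was also lost with spike-in scaling (0.11, adjusted p = 0.493).

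Among HSP70 and HSP110 genes of the cytosol and nucleus, 1 of 9 tested rose, 2 fell and 6 did not pass. Hspa8, the constitutive HSP70 that also uncoats clathrin vesicles, was the most abundant of the family, at 2295 and 2348 TPM in WT and 2225 and 2201 TPM in the knockout-labelled libraries. Its groups did not overlap, yet the change of -0.07 did not pass (95% confidence interval -0.15 to 0.01, adjusted p = 0.162). Hspa8 passed as lower in 2 of the 16 alternative settings. Hspa4, an HSP110 relative that serves as an exchange factor, was at 135 and 136 TPM in WT and 136 and 133 TPM in the knockout-labelled libraries, and these values overlapped (-0.01, 95% confidence interval -0.09 to 0.07).

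Hsph1, which encodes the inducible HSP110 exchange factor, had the largest fall of the family on the log2(TPM + 1) scale, while by TPM ratio Dnajb5 fell further (0.641 against 0.680). Hsph1 was at 27.8 and 28.7 TPM in WT and at 19.7 and 18.7 TPM in the knockout-labelled libraries, a change of -0.53 (SE 0.050, adjusted p = 0.00183). The 2 groups were far apart compared with the spread inside each. Hspa8 therefore stood at 82.6 and 81.9 times the level of Hsph1 in WT and at 113 and 118 times in the knockout-labelled libraries. Hspa14, the HSP70 that works with Dnajc2 at the ribosome, was at 77.3 and 77.3 TPM in WT and at 71.2 and 65.9 TPM in the knockout-labelled libraries. It fell by 0.17 on the log2 scale (adjusted p = 0.0441), a call lost without any single library (adjusted p = 0.126, 0.11, 0.0784 and 0.213 without WT replicate 1 and 2 and knockout-labelled replicate 1 and 2), with no filter and with no trend (adjusted p = 0.0816 and 0.0944) and with a replicate block (adjusted p = 0.0553). Its partner Dnajc2 did not pass (0.01, adjusted p = 0.83). Hspa12b, a distant HSP70 relative best known from endothelial cells, was low, at 1.55 and 1.74 TPM in WT against 3.21 and 2.97 TPM. It rose by 0.63 (SE 0.109, adjusted p = 0.0117), but not without knockout-labelled replicate 1 or 2 (adjusted p = 0.0853 and 0.0655). The endothelial and stromal list counted 1 higher and 2 lower of 4 tested genes, and its part in the Hspa12b value was not tested.

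The inducible HSP70 copies Hspa1a and Hspa1b and most small heat shock proteins were low in both groups. Hspa1a was at 0.52 and 0.84 TPM in WT and at 0.88 and 0.85 TPM in the knockout-labelled libraries and stayed below the filter. Its near-identical neighbour Hspa1b was at 1.47 and 1.08 TPM in WT and at 1.94 and 1.99 TPM in the knockout-labelled libraries, with a change of 0.39 that did not pass (95% confidence interval 0.04 to 0.73 unadjusted, adjusted p = 0.0857). Reads of these copies may have been divided between them, so their values are uncertain. Of 7 small heat shock proteins only Hspb6 was tested, at 11.0 and 12.1 TPM in WT and 13.9 and 13.4 TPM in the knockout-labelled libraries (0.22, adjusted p = 0.0544). Hspb6 passed as higher in 3 of the 16 alternative settings. Hspb1, the small heat shock protein made by many stressed cells, was at 0.09 TPM in WT replicate 1 and listed at 0 in the other 3 libraries. Hspb2 and Hspb3 were listed at 0 in every library. Outside the symbol pattern, the related alpha-crystallin Cryab lay between 0.15 and 0.29 TPM.

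Of the mitochondrial chaperones Hspa9 and Hspe1 rose and Hspd1 did not pass. The 3 genes summed to 684 and 671 TPM in WT and to 776 and 770 TPM in the knockout-labelled libraries, 14.1% higher as deposited. Class sums were not computed under other scalings, and the sum of the whole family changed direction with spike-in scaling. Hspa9, the mitochondrial HSP70 that pulls proteins through the inner membrane, was at 249 and 242 TPM in WT and at 308 and 309 TPM in the knockout-labelled libraries. It rose by 0.33 (SE 0.031, adjusted p = 0.0019), with groups well apart, and passed in all settings except spike-in scaling (0.21, adjusted p = 0.116). Hspe1, the HSP10 lid of the mitochondrial chaperonin, was at 165 and 160 TPM in WT and at 183 TPM in both knockout-labelled libraries. It rose by 0.17 (adjusted p = 0.015), a call lost without knockout-labelled replicate 1 or 2 (adjusted p = 0.124 and 0.117), after spike-in scaling (0.05, adjusted p = 0.681), with trimmed-mean scaling (adjusted p = 0.0519) and with no trend (adjusted p = 0.0557). Hspd1, the HSP60 barrel of that chaperonin, was at 271 and 268 TPM in WT and at 284 and 278 TPM in the knockout-labelled libraries, and its change of 0.06 did not pass (95% confidence interval -0.02 to 0.14, adjusted p = 0.189). Hspa13, an HSP70 of the microsomes, was at 25.4 and 27.0 TPM in WT and at 28.1 and 30.5 TPM in the knockout-labelled libraries (0.16, adjusted p = 0.103).

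Hspd1 and Hspe1 lie head to head on chromosome 1. Their RefSeq start sites, 55087932 on the minus strand and 55088148 on the plus strand of GRCm38.p6, are 216 bases apart, and both windows read the same stretch of DNA on opposite strands. RefSeq also gives an Hspd1 start at 55088243, past the Hspe1 start, so that transcripts from it overlap Hspe1 and the stretch shown lies downstream of it. Heat shock factors bind repeats of nGAAn in alternating orientation, and the 13-base form GAANNTTC directly followed by NNGAA was searched on both strands from 250 bases before to 50 bases after each start. No window was available for 14 members, among them Hspa8, Hsp90aa1, Hsp90ab1 and Hspa9, so these were not searched. The shared stretch and those of Dnajb6 and Hsph1 are shown because these are the searched member windows with that form. Capitals mark the first match in each window. The Hspd1 and Hspe1 capitals are different, overlapping matches, and both windows hold 2 matches.
Hspd1, chr1:55088056-55088084, minus strand: gcggggccTTCCGGAAGGTTCtagaacgg
Hspe1, chr1:55088051-55088079, plus strand: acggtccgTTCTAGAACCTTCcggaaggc
Dnajb6, chr5:29735844-29735872, plus strand: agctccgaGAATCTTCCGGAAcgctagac
Hsph1, chr5:149636280-149636308, minus strand: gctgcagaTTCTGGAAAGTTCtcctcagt
The marked match began 144 bases before the Hspd1 start, 89 before the Hspe1 start and 46 before the Dnajb6 start. In Hsph1 it lay downstream, from base 16 for the start at 149636315 and base 37 for the start at 149636336. Each Hsph1 start was itself counted as base 1. Of the genes that carry these letters, Hspe1 and Dnajb6 rose, Hsph1 fell and Hspd1 did not pass. Their changes were not compared with each other, and a link to the letters was not tested.

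**Figure D2:**
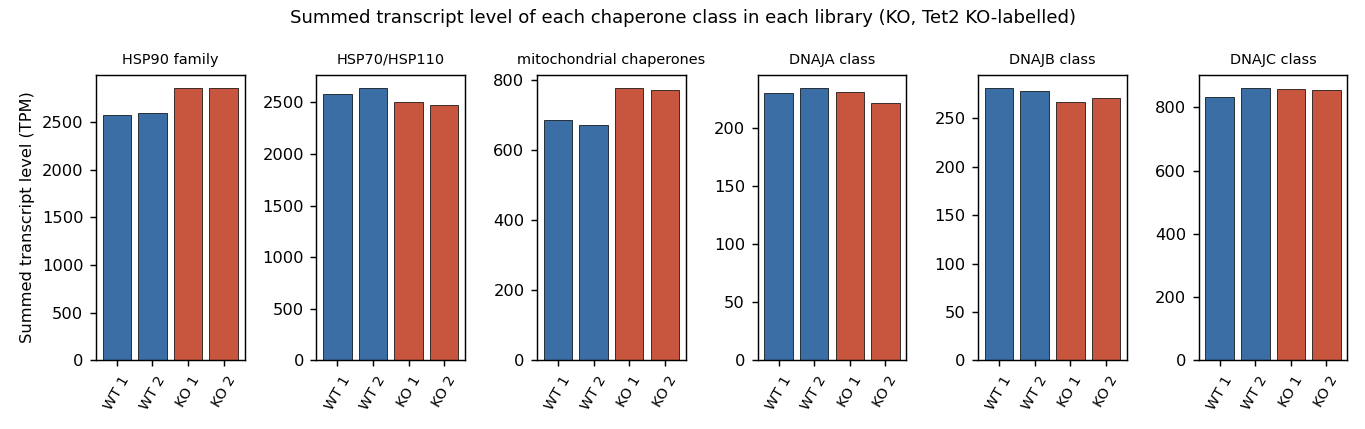
Summed TPM of each chaperone class in each of the 4 libraries (bars from 0, WT in blue, knockout-labelled in red). The HSP90 sum was 2574 and 2588 TPM in WT and 2853 and 2850 TPM in the knockout-labelled libraries, and the mitochondrial sum was also higher without overlap. The HSP70/HSP110 sum was lower without overlap, at 2582 and 2638 TPM in WT and 2504 and 2471 TPM in the knockout-labelled libraries. So was the DNAJB sum, at 281 and 278 TPM against 266 and 271 TPM. The DNAJA sums and the DNAJC sums of 831, 860, 858 and 855 TPM overlapped. All sums are as deposited and were not computed under other scalings, with which the sum of the whole family changed direction.

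Of 38 tested Dnaj symbols 7 were called (18.4%), and of 19 tested Hsp symbols 7 (36.8%), against 30.5% of all tested genes. These shares were not tested against each other. The summed level of the Dnaj symbols was 1342 and 1372 TPM in WT and 1354 and 1347 TPM in the knockout-labelled libraries, and these ranges overlapped. In the DNAJA class 1 of 4 tested genes fell and 3 did not pass. Dnaja1, a farnesylated partner of cytosolic HSP70, was at 84.5 and 86.0 TPM in WT and at 72.4 and 66.5 TPM in the knockout-labelled libraries. It fell by 0.29 on the log2 scale (SE 0.050, adjusted p = 0.0111), though not without knockout-labelled replicate 2 (-0.23, adjusted p = 0.0738). Its paralogue Dnaja2 went the other way in level, at 105 and 106 TPM in WT and at 113 and 112 TPM in the knockout-labelled libraries, with a change of 0.09 that did not pass (adjusted p = 0.0931). The ratio of Dnaja1 to Dnaja2 was thus 0.81 in both WT libraries and 0.64 and 0.59 in the knockout-labelled libraries.

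Among DNAJB genes 2 of 10 tested rose, 2 fell and 6 did not pass. Dnajb4, a cytosolic J protein (chromosome 3, 152178511 to 152210302, minus strand), was at 14.3 and 14.7 TPM in WT and at 20.0 TPM in both knockout-labelled libraries. It rose by 0.44 (SE 0.049, adjusted p = 0.00314), and its groups were separated by many times their spread. Dnajb1, the main stress-inducible J protein of the cytosol, was at 34.3 and 31.8 TPM in WT and at 32.4 and 30.8 TPM in the knockout-labelled libraries, and these values overlapped (-0.06, 95% confidence interval -0.20 to 0.08, adjusted p = 0.439). Dnajb4 stood at 0.42 and 0.46 of the Dnajb1 level in WT and at 0.62 and 0.65 in the knockout-labelled libraries.

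Dnajb11, the J protein that works with the lumenal HSP70 in the endoplasmic reticulum (chromosome 16, 22857845 to 22879634, plus strand), fell. It was at 71.5 and 67.9 TPM in WT and at 50.0 and 51.2 TPM in the knockout-labelled libraries, a change of -0.46 (SE 0.043, adjusted p = 0.00185). Dnajb5 was low, at 4.77 and 5.37 TPM in WT and at 2.98 and 3.52 TPM in the knockout-labelled libraries. It fell by 0.52 on the log2 scale (SE 0.108, adjusted p = 0.02), and leaving out any single library ended the call (adjusted p = 0.0523, 0.0795, 0.109 and 0.0606 without WT replicate 1 and 2 and knockout-labelled replicate 1 and 2), as did using no filter (adjusted p = 0.0589). Dnajb6, which keeps aggregation-prone proteins soluble, was at 83.5 and 86.3 TPM in WT and at 92.3 and 93.8 TPM in the knockout-labelled libraries. Its rise of 0.13 passed narrowly (adjusted p = 0.0457) and was lost in 10 of the 16 settings. These were the fits without WT replicate 1 or 2 (adjusted p = 0.119 and 0.0511), without knockout-labelled replicate 1 or 2 (adjusted p = 0.182 and 0.227), and those with spike-in scaling (0.01, adjusted p = 0.908), trimmed-mean scaling (adjusted p = 0.101), rescaling without the granulocyte list (adjusted p = 0.16), no filter (adjusted p = 0.0589), no trend (adjusted p = 0.105) and a replicate block (adjusted p = 0.0696). Dnajb7 passed the filter only through the knockout-labelled group, at 0.48 and 0.56 TPM against 1.05 and 1.08 TPM, and did not pass the test (adjusted p = 0.0675). It passed as higher in 4 of the 16 alternative settings.

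**Figure D3:**
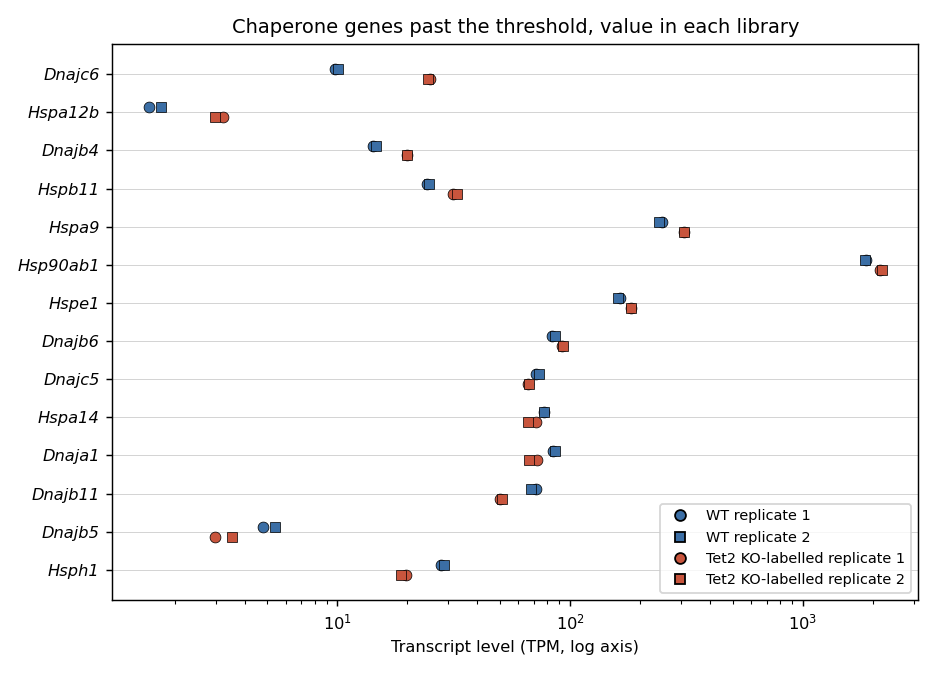
Level of each of the 14 family genes that passed, in TPM on a log axis, with WT libraries in blue and knockout-labelled libraries in red (circles replicate 1, squares replicate 2). In each gene both knockout-labelled values lie on the same side of both WT values, from Dnajc6 (9.72 and 10.1 against 25.0 and 24.4 TPM) at the top to Hsph1 (27.8 and 28.7 against 19.7 and 18.7 TPM) at the bottom.

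The DNAJC class, whose members share little beyond the J domain, had 1 rise, 1 fall and 22 of 24 tested genes that did not pass. The rise was in Dnajc6, which encodes auxilin, the J protein that recruits Hspa8 to strip clathrin from vesicles and is best known from neurons (chromosome 4, 101496648 to 101642799, plus strand). It was at 9.72 and 10.1 TPM in WT and at 25.0 and 24.4 TPM in the knockout-labelled libraries, a ratio of 2.50 between the group means. This was the largest change of the family (1.24, SE 0.052, adjusted p = 0.000176), and the values inside each group differed by less than 1 TPM. Gak, the ubiquitous auxilin relative whose symbol lies outside the pattern, was at 66.2 and 67.2 TPM in WT and at 65.4 and 69.0 TPM in the knockout-labelled libraries (0.01, adjusted p = 0.858). Gak stood at 6.81 and 6.67 times the Dnajc6 level in WT and at 2.62 and 2.83 times in the knockout-labelled libraries. RefSeq gives Dnajc6 start sites at 101507976 and 101550594, and values for the gene do not show which of them was used.

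Dnajc5, the cysteine string protein of secretory vesicles, was at 71.2 and 73.9 TPM in WT and at 65.9 and 66.4 TPM in the knockout-labelled libraries. It fell by 0.13 on the log2 scale (adjusted p = 0.0494), and the call was lost without WT replicate 1 or 2 (adjusted p = 0.061 and 0.117), without knockout-labelled replicate 1 or 2 (adjusted p = 0.227 and 0.193) with a replicate block (adjusted p = 0.0752), with no filter (adjusted p = 0.0632), with no trend (adjusted p = 0.104) and with a pseudocount of 0.1 (adjusted p = 0.0509). Dnajc7, which carries TPR repeats that bind both HSP70 and HSP90, was at 86.5 and 85.8 TPM in WT and at 88.6 and 91.5 TPM in the knockout-labelled libraries (0.06, adjusted p = 0.238). Dnajc12 had the lowest change of those that did not pass, at 5.99 and 5.85 TPM in WT against 5.01 and 3.57 TPM (-0.40, adjusted p = 0.0845). It passed as lower in 2 of the 16 alternative settings. Dnajc8, a splicing-associated J protein and the most abundant of the class, ranged from 156 to 169 TPM over the 4 libraries and its groups overlapped.

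Among the names that match by letters, Hspb11 was at 24.3 and 24.9 TPM in WT and at 31.3 and 32.8 TPM in the knockout-labelled libraries. It rose by 0.37 (SE 0.047, adjusted p = 0.0045), though not without knockout-labelled replicate 2 (adjusted p = 0.0536) or with spike-in scaling (0.26, adjusted p = 0.0523). Hspbp1 (0.14, adjusted p = 0.147) and Hspbap1 (-0.24, adjusted p = 0.127) did not pass.

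**Figure D4:**
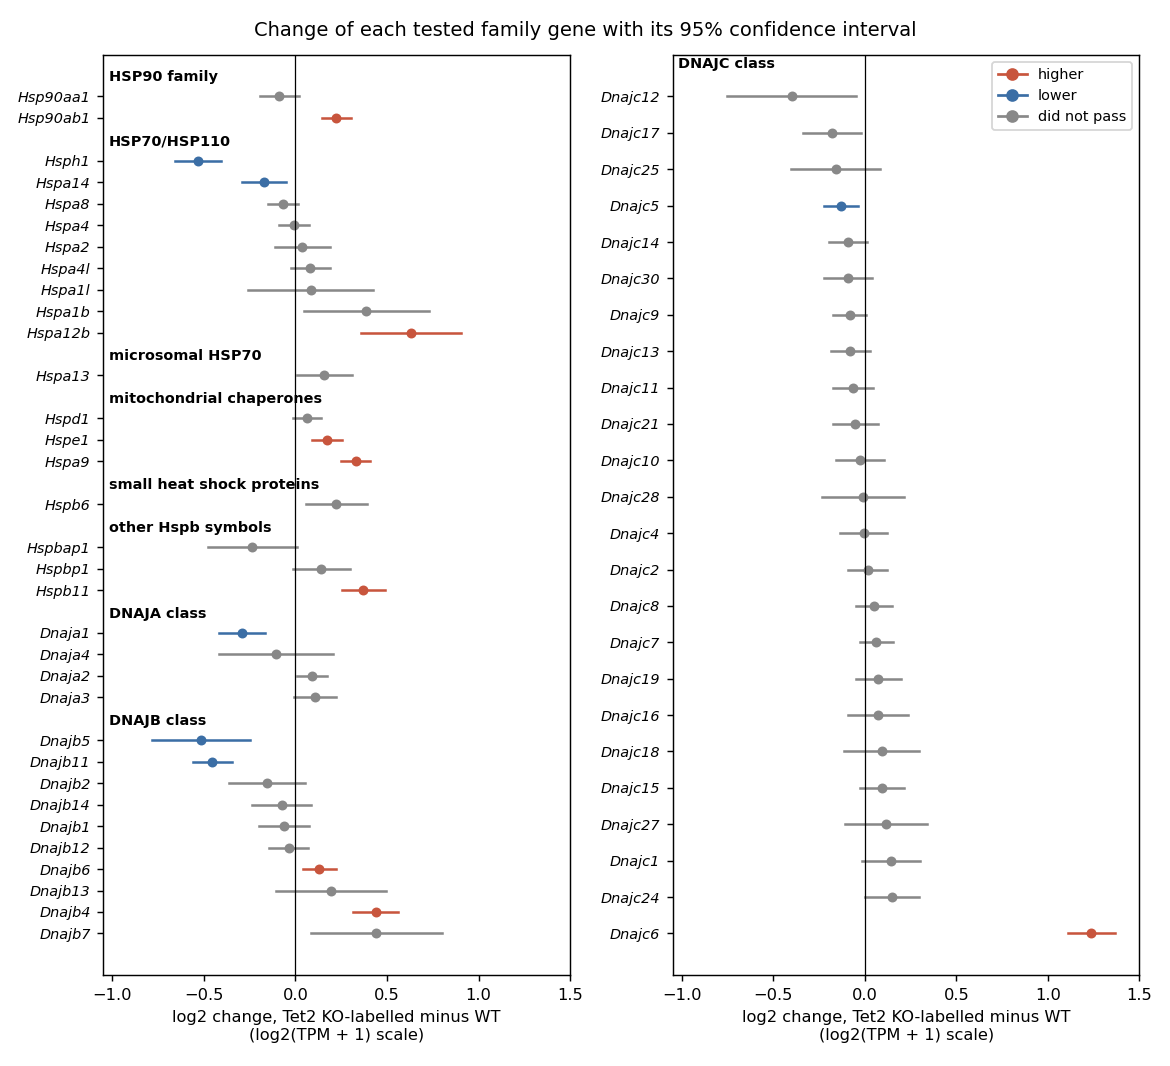
Change of each of the 57 tested family genes on the log2(TPM + 1) scale (points) with its unadjusted 95% confidence interval (bars), grouped by class and coloured red if higher, blue if lower and grey if it did not pass. Of the HSP90, HSP70 and mitochondrial genes, those that rose were Hsp90ab1, Hspa12b, Hspe1 and Hspa9, and 22 of the 24 DNAJC genes are grey.

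Genes that work with the family but lie outside the symbol pattern were counted in the same fit. Of 117 tested genes in 9 lists of regulators and co-chaperones, 20 rose, 14 fell and 83 did not pass (29.1% called, against 30.5% of all tested genes). None of the 3 tested heat shock factors passed. Hsf1 was at 21.3 and 23.3 TPM in WT and 22.8 and 23.9 TPM in the knockout-labelled libraries (0.06, adjusted p = 0.492), and Hsf2 lay between 6.60 and 7.12 TPM (adjusted p = 0.531). Hsf4 was low, at 0.70 and 0.61 TPM in WT and at 1.28 and 1.19 TPM in the knockout-labelled libraries. It reached the filter only through the knockout-labelled group, and its change did not pass (0.43, adjusted p = 0.0651). Among the other heat shock factors and regulators, Ier2, an immediate-early gene, rose by 0.24. Of 14 tested HSP70 exchange factors and regulators 1 fell (7.14% called). This was Hyou1 (-0.24, adjusted p = 0.00525), the HSP110 relative of the endoplasmic reticulum. Bag3, an exchange factor induced by HSF1, did not pass (0.12, adjusted p = 0.11), nor did the ubiquitin ligase Stub1 (-0.14, adjusted p = 0.135). Of 25 tested HSP90 co-chaperones 3 rose and 2 fell (20% called). The ATPase activator Ahsa1 (-0.19, adjusted p = 0.015) and the myosin chaperone Unc45a (-0.22) fell, the import receptor Tomm70a (0.17) rose, and Stip1, which links HSP70 to HSP90, did not pass (-0.01, adjusted p = 0.841).

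Of 15 tested genes of the cytosolic TRiC chaperonin, which folds actin and tubulin, and of its partner prefoldin, 5 rose and 10 did not pass (33.3% called, median 0.02). Cct4 was at 293 and 300 TPM in WT and at 352 and 356 TPM in the knockout-labelled libraries (0.25, adjusted p = 0.00396), and Cct2 (0.20), Cct5 (0.21), Tcp1 (0.15) and Vbp1 (0.37) rose with it. Of 18 tested genes of mitochondrial proteases and import 5 rose and 2 fell (38.9% called, against 30.5% of all tested genes). The import receptor Tomm20 (0.24, adjusted p = 0.00678) and Trap1, the mitochondrial HSP90 (0.17, adjusted p = 0.0172), rose, and the intermembrane protease Htra2 fell (-0.21, adjusted p = 0.0149). After spike-in scaling 2 genes of all 9 lists were higher and 14 lower, and without knockout-labelled replicate 1 or 2 only 1 rose in each case.

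The 4 endoplasmic reticulum chaperones that had been left out went in different directions, with Hspa5 lower (708 and 712 TPM in WT, 651 and 633 TPM in the knockout-labelled libraries; -0.15, adjusted p = 0.022) and Dnajb9 higher (0.26, adjusted p = 0.0168). Hsp90b1 (-0.10, adjusted p = 0.123) and Dnajc3 (0.01, adjusted p = 0.873) did not pass. Of 15 tested folding enzymes of that compartment 2 rose and 5 fell (46.7% called, against 30.5% of all tested genes). The disulfide isomerase Pdia4 (-0.30, adjusted p = 0.00217) and Sdf2l1 (-0.42, adjusted p = 0.00251), which forms a complex with Dnajb11, fell, and the oxidase Ero1l rose (0.45, adjusted p = 0.00163). Of 25 tested HSF1 targets outside the family 3 rose and 5 fell (32% called). Sqstm1 (0.26) and P4ha1 (0.22) were higher and Mt2 (-0.26) was lower. Immediate-early genes, which respond to handling of cells, counted 5 higher and 6 lower of 22 tested (50% called). Among them Egr2 fell (-1.52), from 25.7 and 26.6 TPM in WT to 7.99 and 8.96 TPM, and Egr1 rose (0.30). The summed level of the list was 1429 and 1483 TPM in WT and 1472 and 1521 TPM in the knockout-labelled libraries.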

How the data were processed

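Gene expression was measured by RNA-seq (total RNA, KAPA stranded mRNA kit, per the labels' protocols) in 4 libraries, 2 per group. The authors deposited one table of TPM. The unit was read from the values, since each column sums to 1000000. STAR, RSEM and mm10 are named per the submitters' processing notes, and versions, annotation and strandedness are not given in the sources used here. TPM keep no depth, so the depth is unknown and no counting interval is given. A value of 0 may stand for an estimate that failed. Between 11630 and 11731 mouse genes reached 1 TPM per library.

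The 92 spike-in entries were left out, genes that reached 1 TPM in 2 or more libraries were kept, and log2(TPM + 1) was compared with limma 3.58.1 in R 4.3.3 with a variance trend and no block (2 residual and 3.51 prior degrees of freedom). Nothing says that replicates came from separate cultures, so the p-values reflect only how far these libraries differ, and that may be technical. The step was run on simulated data with independent noise and far fewer changed genes than were called here. That run does not show how reliable the calls in these libraries are. Members and lists were chosen with earlier results of these data known. Named genes were every called member, a set of family and partner genes taken whatever their values, and, from each partner list, up to 3 genes by smallest p, some of them omitted. A few single-gene results are not reported here. Dnajc2, Dnaja2, Dnajc8, Dnajc12, Dnajb7, Dnajb4's ratio to Dnajb1, Hspa13, Hspb6, Hspbap1, Gak, Cryab, Tcp1 and Vbp1 were named after their values were seen. Coordinates are from GENCODE M21 (GRCm38), and promoter windows from RefSeq (GRCm38.p6), which matched 56 of 70 members. Alternatives were a replicate block, 4 other scalings, 2 other filters, pseudocounts of 0.1 and 5, no trend, robust variances, leaving out each library, and, chosen after seeing the data, removal of the GC and length trend.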

Additional observations from a re-analysis of the deposited data

How the results depend on the processing

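The 14 called members numbered 8 higher and 6 lower as deposited. With spike-in scaling 3 members were higher, with TPM rescaled without the granulocyte list 10 were lower, and with no filter 3 were lower. Leaving out each library in turn gave 3 to 7 higher and 2 to 4 lower members, while the share of all genes called went from 30.5% to 19.0% and 24.5% without WT replicate 1 and 2 and to 8.57% and 8.95% without knockout-labelled replicate 1 and 2. Of the 14, 11 were still called with a replicate block, 9 after spike-in scaling, 13 when rescaled without the granulocyte list and 5 to 10 with a library left out. The partner lists held 20 higher and 14 lower genes as deposited. Higher genes numbered 13 with trimmed-mean scaling, 13 with no trend, 13 when rescaled without the granulocyte list and 2 with spike-in scaling, and lower genes numbered 9 with no trend. Leaving out each library gave 1 to 16 higher and 2 to 12 lower. The summed level of the family was 3.43% higher as deposited, differed by -4.69% after spike-in scaling and by -0.34% when rescaled without the granulocyte list, and was 2.8% to 4.07% higher with a library left out. The cause of these shifts was not tested. With a replicate block 7 members were higher and 4 lower, Dnajb6, Dnajc5 and Hspa14 were lost (adjusted p = 0.0696, 0.0752 and 0.0553), and deviations of same-numbered libraries correlated at -0.11 across genes, so the numbers are not taken to pair the libraries. No named gene changed sign where it passed in the main or the alternative fit. Sign changes of genes that passed in neither were not counted as reversals. TPM give no depth, and changes of genes near 1 TPM rest on an unknown number of reads.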

Other observations

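J-domain proteins that do not carry a Dnaj symbol were compared in the same fit, as a list chosen after the data were seen. Hscb, which delivers iron-sulfur cluster scaffolds to mitochondrial Hspa9, was at 27.0 and 32.3 TPM in WT and at 36.3 and 36.2 TPM in the knockout-labelled libraries, with groups apart and a change of 0.29 that did not pass (adjusted p = 0.0546). Sec63, the J protein of the translocon, did not pass (0.13, adjusted p = 0.0896).

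Heat shock element letters were counted in the RefSeq windows of 56 members, on both strands. The full form, GAANNTTC directly followed by NNGAA, was in the windows of 4 members (7.14%), against 0.662% of 27025 genes. The short form GAANNTTC, which overlaps the full form, was in 14 members (25.0%), against 9.04% of genes. The other short form TTCNNGAA was in 6 members (10.7%), against 9.60% of genes. The stretch shared by Hspd1 and Hspe1 was counted for both genes in each form. The near-identical Hspa1a and Hspa1b both count towards GAANNTTC. The Hspa1a and Hspa1b windows are identical at 296 of 300 bases, and both carry the same stretch 104 to 97 bases before the start, shown because it illustrates how alike these copies are, with the short form in capitals.
Hspa1a, chr17:34972242-34972271, minus strand: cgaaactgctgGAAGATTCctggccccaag
Hspa1b, chr17:34959324-34959353, minus strand: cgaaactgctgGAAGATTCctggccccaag
These matches are descriptions of letters, and no factor binding was measured here.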
